A study of Mus musculus with 12 samples.

Results

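The 10 genes described here encode the parts of MHC class I antigen presentation: the heavy chains H2-K1, H2-D1, H2-Q4, H2-Q6, H2-Q7 and H2-T23, the light chain B2m, the peptide transport and loading proteins Tap1 and Tapbp, and the transactivator Nlrc5. They were chosen by gene symbol, with earlier results of these data known, and are 10 of the 16482 genes of the count table. All 10 symbols were found. The series holds 12 RNA samples of whole brain from C57BL/6 mice, read by MARS-seq in bulk, a method in which each tag comes from the 3' end of a transcript. The labels name no mutation or transgene in any group. PBS, the vehicle group, held 4 samples (replicates 2, 3, 4 and 5) of postnatal day 40. The CBE group held 4 samples of mice given conduritol B epoxide, which inhibits the lysosomal enzyme glucocerebrosidase and is used to model neuronopathic Gaucher disease; replicates 2 and 3 were of day 34, and replicates 4 and 6 of day 40. The third group, CBE+GZ-667161, held 4 samples of day 40 (replicates 2, 3, 4 and 5) and received CBE together with GZ-667161, an inhibitor of glucosylceramide synthase. Every treated sample had thus received CBE, and no group had GZ-667161 alone. The comparisons ask which transcripts accompany CBE and how they stand when the synthase inhibitor is added.

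Class I molecules show fragments of the cell's own proteins at its surface. Proteasomes cut the proteins, the TAP transporter moves the peptides into the endoplasmic reticulum, tapasin (encoded by Tapbp) holds empty heavy chains to the transporter, and the heavy chain with beta-2 microglobulin carries the peptide to the surface, where CD8 T cells and receptors of natural killer and myeloid cells read it. In the healthy brain class I transcripts are low, and interferons are known to raise them in microglia, endothelium and other cells through STAT and IRF factors and through Nlrc5, which acts on class I promoters.

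Total counts ran from 1753626 to 6499257 per sample, the 2 lowest being the day 34 CBE samples. Of the 16482 genes, 12623 had enough counts to be tested, and all pairs of samples of one group differed beyond counting noise (chi-square divided by its degrees of freedom, 3.29 to 12.2). Since the labels do not tie each sample to its own mouse, p-values here rest on the spread among samples only, and some of that spread may be technical. Sex was not balanced over the groups: Xist was at 7.96 to 25.7 CPM (counts relative to the library total, after TMM scaling in edgeR) in 2 PBS and 3 CBE+GZ-667161 samples and at most 0.555 CPM elsewhere, including all CBE samples. The label of whole brain was checked with 7 neuronal and 7 oligodendrocyte markers, all of which had counts in each group.

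Stretches of the promoters of 6 members are shown because most of these genes moved together and their upstream sequences can be set side by side. RefSeq promoters were matched for 9 of the 10 members; those of H2-D1, H2-T23 and Tapbp, whose RefSeq start lies inside the GENCODE gene, are not shown, nor is Nlrc5. Each stretch below runs 5′ to 3′ from 180 to 11 bases before the RefSeq start of the gene, in lower case. Capitals mark exact matches of the motifs searched on both strands: the palindromic NF-kB site of class I promoters, the interferon-stimulated response element (GAAA repeated after any 2 bases) or its form GAANNGAAA (read here from the other strand as TTTCACTTC), TGACG (the core of the cyclic AMP response element) and ATTGG (the inverted CCAAT box, or CCAAT on the other strand).
H2-K1, GRCm38.p6 chr17:34000358-34000527 (- strand): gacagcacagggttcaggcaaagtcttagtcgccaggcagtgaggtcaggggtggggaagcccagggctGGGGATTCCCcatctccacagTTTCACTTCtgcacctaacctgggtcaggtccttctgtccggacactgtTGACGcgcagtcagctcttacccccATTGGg
H2-Q4, GRCm38.p6 chr17:35379437-35379606 (+ strand): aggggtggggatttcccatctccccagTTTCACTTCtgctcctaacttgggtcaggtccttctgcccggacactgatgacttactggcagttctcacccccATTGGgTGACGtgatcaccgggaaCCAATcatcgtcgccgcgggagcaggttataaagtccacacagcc
H2-Q6, GRCm38.p6 chr17:35424670-35424839 (+ strand): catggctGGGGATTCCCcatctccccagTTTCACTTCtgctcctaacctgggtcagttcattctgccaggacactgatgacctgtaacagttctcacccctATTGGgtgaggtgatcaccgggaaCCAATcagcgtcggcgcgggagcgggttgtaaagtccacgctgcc
H2-Q7, GRCm38.p6 chr17:35438975-35439144 (+ strand): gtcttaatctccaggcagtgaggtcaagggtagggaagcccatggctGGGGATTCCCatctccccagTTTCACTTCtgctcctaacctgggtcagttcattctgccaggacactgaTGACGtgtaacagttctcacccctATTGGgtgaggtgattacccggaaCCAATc
B2m, GRCm38.p6 chr2:122147507-122147676 (+ strand): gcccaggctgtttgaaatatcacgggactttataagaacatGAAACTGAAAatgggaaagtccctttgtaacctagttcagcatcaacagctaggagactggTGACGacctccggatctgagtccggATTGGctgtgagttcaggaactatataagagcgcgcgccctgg
Tap1, GRCm38.p6 chr17:34187376-34187545 (+ strand): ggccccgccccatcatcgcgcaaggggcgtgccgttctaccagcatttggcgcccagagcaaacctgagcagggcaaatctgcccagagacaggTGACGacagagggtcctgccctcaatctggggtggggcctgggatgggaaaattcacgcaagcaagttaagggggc

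The windows searched ran from 250 bases before the start to 50 after it. In them the NF-kB site, the first run of capitals in the H2-K1, H2-Q6 and H2-Q7 stretches, was found in H2-K1, H2-D1, H2-Q6 and H2-Q7, and in 28 of all 32851 promoters (0.0852%). Its first base lay 111 bases before the H2-K1 start, 173 before that of H2-Q6, 133 before that of H2-Q7 and 171 before that of H2-D1. The interferon-type match TTTCACTTC followed in the same genes, starting 90, 152, 113 and 150 bases before the start, and in H2-Q4 at 153 bases. GAANNGAAA occurred in 6.31% of all promoters. The full response element, in 2.98% of promoters, was found in B2m, 139 bases before the start, and in H2-T23, 124 bases before it. TGACG was present in 6 members and in 17.8% of promoters, and ATTGG in all 9 members matched and in 33.8% of promoters. Counted per gene, as the members are, these shares were 19.8% and 37.5% of 27025 genes. The gamma-activated site TTCNNNGAA, present in 7.02% of promoters, was found in none of the 9. The Tap1 and Tapbp windows held only the last 2 kinds of match, TGACG and ATTGG in Tap1 and ATTGG in Tapbp. These are matches of letters in windows of the reference and not measured binding; the heavy-chain genes are near copies of each other, so their shared matches are not independent.

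**Figure D1:**
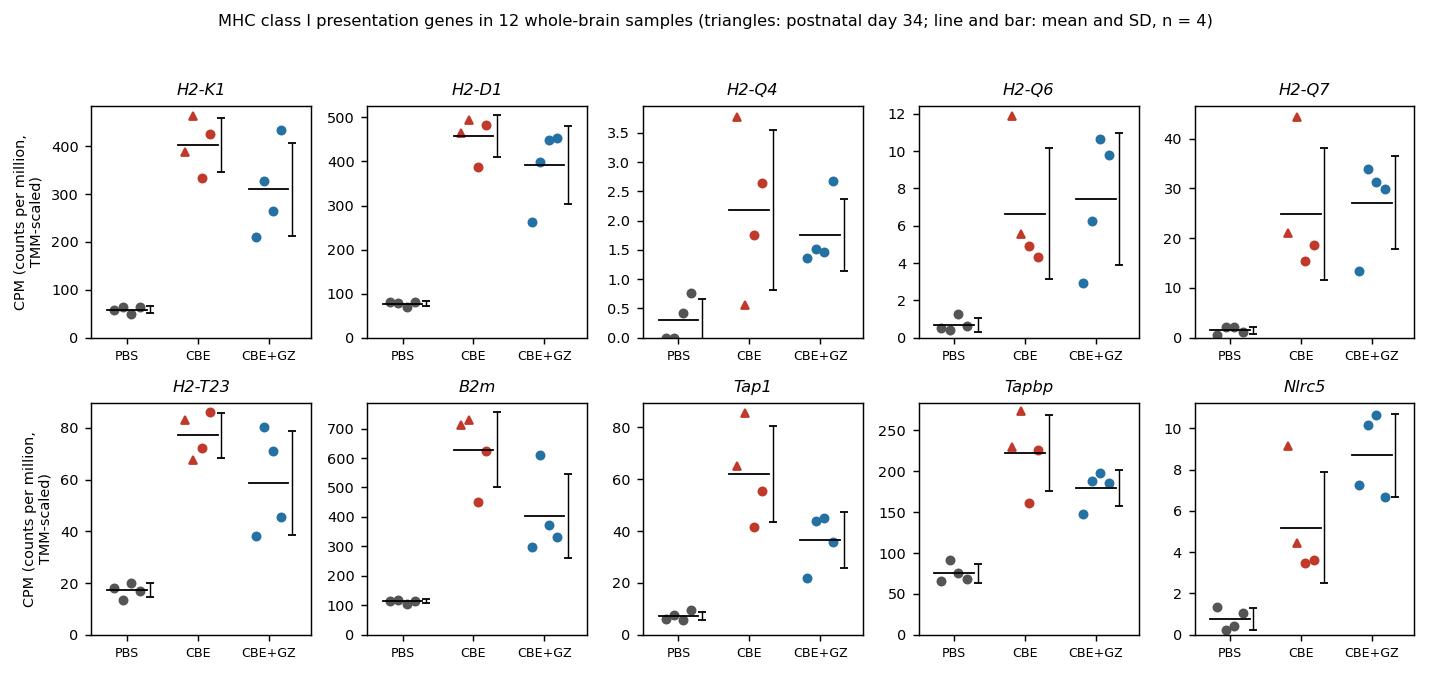
Level of each of the 10 genes in each sample, in CPM after TMM scaling (vertical axes, linear, from 0), for PBS, CBE and CBE+GZ-667161 samples. Points are samples, triangles are CBE samples of day 34, lines are means and bars are SD (n = 4). For the 9 genes other than H2-Q4, all treated samples lie above all PBS samples. Of all tested genes, 8.61% were higher without overlap in CBE and 6.65% in CBE+GZ-667161. H2-Q6, H2-Q7 and Nlrc5 were kept by the low-count filter only through the treated groups.

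H2-K1 and H2-D1 encode the classical heavy chains of this strain. H2-K1 (mm10 chromosome 17, 33996017 to 34000347) stood at 58.5, 64.3, 49.4 and 63.2 CPM in the 4 PBS samples. In CBE it stood at 387 and 464 CPM at day 34 and at 333 and 425 CPM at day 40. In CBE+GZ-667161 it stood at 211, 328, 265 and 435 CPM. Every treated sample was thus above every PBS sample, while the treated groups overlapped. H2-K1 rose 6.80-fold in CBE (log2 fold change 2.76 ± 0.19, SE; edgeR quasi-likelihood test, adjusted p = 1.28e-07) and 5.22-fold in CBE+GZ-667161 (2.38 ± 0.19, adjusted p = 1.24e-06), both against the same PBS samples. H2-D1 (chromosome 17, 35262730 to 35267499) lay at 81.8, 77.9, 70.4 and 80.0 CPM in PBS. It lay at 466, 493, 388 and 482 CPM in CBE replicates 2, 3, 4 and 6, and at 263, 399, 448 and 453 CPM in CBE+GZ-667161 replicates 2, 3, 4 and 5. The PBS samples were again all lower, and CBE+GZ-667161 replicate 2 was the lowest of the treated samples in both genes. H2-D1 rose by 2.56 ± 0.16 on the log2 scale in CBE (adjusted p = 7.08e-08) and by 2.33 ± 0.16 in CBE+GZ-667161 (adjusted p = 3.01e-07).

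The non-classical heavy chains include H2-Q7, the member with the largest fold change in both comparisons among the 9 tested. For H2-Q7 and H2-Q6 no PBS sample was above the low-count filter's minimum of 2.89 CPM, so being higher was a condition of their test. H2-Q7 (chromosome 17, 35439155 to 35443773), a Qa-2 gene, had 0.529, 2.13, 2.09 and 1.08 CPM in PBS, which are 2 to 10 counts per sample. CBE samples had 21.0, 44.4, 15.4 and 18.5 CPM, and CBE+GZ-667161 samples 13.4, 34.0, 31.4 and 29.8 CPM. The groups against PBS did not overlap, and H2-Q7 rose by 4.09 ± 0.46 in CBE (adjusted p = 1.24e-05) and by 4.25 ± 0.45 in CBE+GZ-667161 (adjusted p = 1.35e-05). H2-Q6 (chromosome 17, 35424850 to 35430055), its neighbour, ranged from 0.425 to 1.26 CPM in PBS, from 4.30 to 11.9 CPM in CBE and from 2.95 to 10.7 CPM in CBE+GZ-667161. It rose by 3.26 ± 0.55 (adjusted p = 0.000808) and by 3.44 ± 0.53 (adjusted p = 0.000644). H2-Q4 (chromosome 17, 35379617 to 35385290) had 6 counts in all PBS samples together, 21 in CBE and 26 in CBE+GZ-667161, and was too low to be tested. Its range was 0 to 0.769 CPM in PBS, 0.555 to 3.77 CPM in CBE and 1.36 to 2.67 CPM in CBE+GZ-667161, so only the last group lay wholly above PBS. Without the filter on low counts its log2 fold change in CBE was 2.61 ± 0.81 and edgeR's adjusted p 0.0523, while DESeq2 gave 2.76 and an adjusted p of 0.0298.

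H2-T23 (chromosome 17, 36029773 to 36032855) encodes Qa-1, which shows leader peptides of other class I chains to inhibitory receptors. It had 18.3, 13.6, 20.1 and 16.8 CPM in PBS, 83.0, 67.8, 72.1 and 86.1 CPM in CBE, and 38.2, 80.4, 70.9 and 45.4 CPM in CBE+GZ-667161. In the last group 2 samples were near the CBE level and 2 lay below every CBE sample, but all were above PBS. H2-T23 rose by 2.18 ± 0.22 in CBE (adjusted p = 3.67e-06) and by 1.80 ± 0.22 in CBE+GZ-667161 (adjusted p = 4.91e-05). In bulk tissue, more cells that express a gene and more RNA per cell cannot be told apart, and this holds for every change described here.

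B2m (chromosome 2, 122147686 to 122153083), the light chain shared by class I molecules, is the only member besides Nlrc5 that lies outside chromosome 17. It stood at 115, 119, 105 and 116 CPM in PBS. CBE samples stood at 711 and 728 CPM at day 34 and at 452 and 623 CPM at day 40, and CBE+GZ-667161 samples at 297, 611, 374 and 333 CPM. PBS samples were the lowest throughout, and 3 of the 4 CBE+GZ-667161 samples lay below all CBE samples, with replicate 3 inside the CBE range. B2m rose 5.51-fold in CBE (log2 2.46 ± 0.20, adjusted p = 3.82e-07) and 3.55-fold in CBE+GZ-667161 (1.83 ± 0.20, adjusted p = 1.72e-05).

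Tap1 (chromosome 17, 34187553 to 34197225) encodes a subunit of the peptide transporter. Its PBS values were 6.09, 7.45, 5.86 and 9.54 CPM. Its CBE values were 65.2, 85.5, 41.7 and 55.6 CPM, and its CBE+GZ-667161 values 21.8, 43.8, 45.0 and 35.6 CPM. No treated sample came near PBS, and the 2 day 34 CBE samples were the highest. Tap1 rose by 3.04 ± 0.27 in CBE (adjusted p = 8.77e-07) and by 2.29 ± 0.27 in CBE+GZ-667161 (adjusted p = 3.74e-05). Tapbp (chromosome 17, 33915899 to 33929292) had 65.9, 91.5, 74.98 and 67.7 CPM in PBS, 230, 273, 161.1 and 225 CPM in CBE, and 148, 188, 198 and 186 CPM in CBE+GZ-667161. It rose by 1.57 ± 0.16 (95% interval 1.23 to 1.90, adjusted p = 4.29e-06) and by 1.26 ± 0.16 (0.93 to 1.59, adjusted p = 7.14e-05), the smallest fold changes of the 9 members tested.

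Nlrc5 (chromosome 8, 94434356 to 94527272), the transactivator of class I genes, had 14 counts in all PBS samples together, 46 in CBE and 145 in CBE+GZ-667161. PBS values were 1.32, 0.213, 0.419 and 1.08 CPM, CBE values 9.16, 4.44, 3.50 and 3.64 CPM, and CBE+GZ-667161 values 7.27, 10.18, 10.7 and 6.68 CPM. Both treated groups were above PBS, and the CBE+GZ-667161 samples were above 3 of the 4 CBE samples. No PBS sample was above the filter's minimum of 2.89 CPM for this gene, so being higher was a condition of its test. Nlrc5 rose by 2.61 ± 0.50 in CBE (adjusted p = 0.00228) and by 3.41 ± 0.46 in CBE+GZ-667161 (adjusted p = 0.000154).

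Of the 10 members, 9 were tested. Of these, H2-Q6, H2-Q7 and Nlrc5 had no PBS sample above the filter's minimum of 2.89 CPM and were kept only through the treated groups, so that being higher was a condition of their test. The other 6, H2-K1, H2-D1, H2-T23, B2m, Tap1 and Tapbp, were above it in all 12 samples. All 6 rose in CBE against PBS, where 6.95% of all tested genes rose; the median of the 6 log2 fold changes was 2.51, against -0.01 over all tested genes. All 6 rose in CBE+GZ-667161, where 3.11% did, with a median of 2.06 against -0.00024. The 4 and 4 samples did not overlap for any of the 6 in either comparison, which held in the higher direction for 8.61% of all tested genes in CBE and 6.65% in CBE+GZ-667161, and in the lower direction, which no member showed, for 7% and 3.12%. The 6 also passed against PBS with the CBE samples of either day alone: with only the day 40 CBE samples the log2 fold changes of H2-K1, H2-D1, B2m and Tapbp were 2.67, 2.48, 2.23 and 1.36, and with only those of day 34 they were 2.86, 2.64, 2.68 and 1.76. With sex as a term, they were 2.80, 2.47, 2.47 and 1.48. The authors' deposited table calls 10 of the 10 members in CBE against PBS and 9 in CBE+GZ-667161 against PBS, all except H2-Q4. That table was read only for the members, so its share of called genes over all genes is not given here. It rests on the same samples, and H2-Q4 too had no PBS sample above the filter's minimum.

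**Figure D2:**
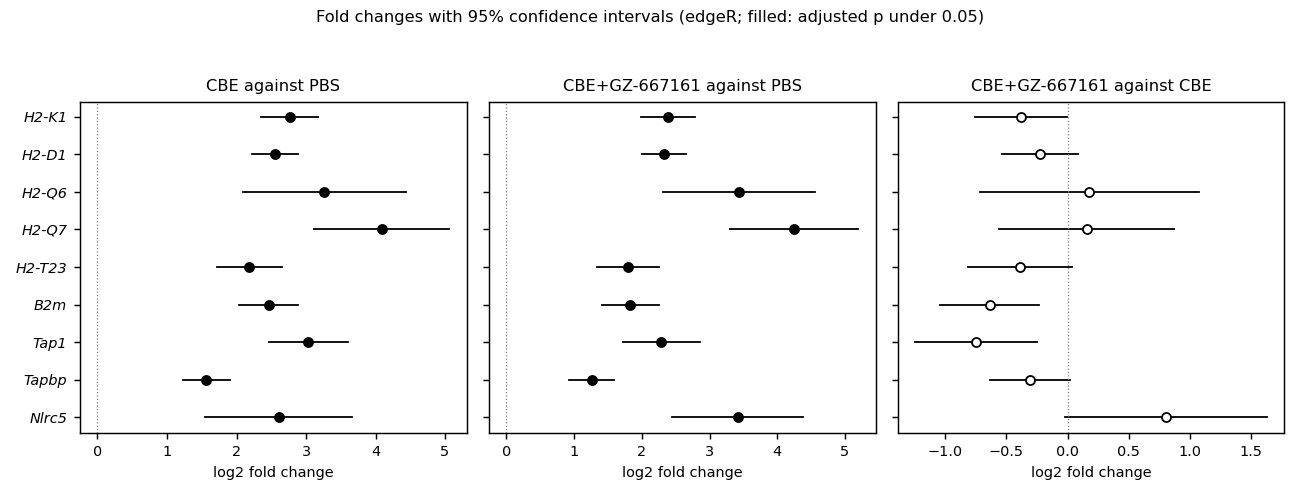
Log2 fold changes (horizontal axes) of the 9 members tested, with 95% confidence intervals, in 3 panels: the PBS samples as reference for CBE, the same reference for CBE+GZ-667161, and last the treated groups against each other. Filled points passed an adjusted p of 0.05 in edgeR. All are filled against PBS, where 6.95% (CBE) and 3.11% (CBE+GZ-667161) of all tested genes rose. For H2-Q6, H2-Q7 and Nlrc5, being higher was a condition of the test. None is filled in the comparison of the treated groups, where the points run from -0.75 (Tap1) to 0.80 (Nlrc5).

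Between CBE+GZ-667161 and CBE no member passed the threshold of edgeR. Xist stood at 25.7, 13.9 and 11.1 CPM in CBE+GZ-667161 replicates 2, 3 and 5 and at most at 0.555 CPM in CBE. Sex and treatment are therefore hard to tell apart in this comparison. With sex as a term in edgeR no member passed either. By this test 0 of the 9 members passed, where by adjusted p 0.444% of all tested genes were higher and 0.832% lower. At an unadjusted p under 0.05 there were 3 members, all lower, namely Tap1, B2m and H2-K1. The share of all genes at an unadjusted p is not given here. DESeq2 called 1 member and limma-voom 0. The log2 difference of B2m was -0.64 (95% interval -1.04 to -0.23, adjusted p = 0.106), a level 0.644 times that in CBE. DESeq2 called B2m (-0.65, adjusted p = 0.0365), as did edgeR when CBE+GZ-667161 replicate 3 was left out (-0.91, adjusted p = 0.0321), and the authors' deposited table calls B2m alone of the 10 (adjusted p = 0.0443). Tap1 differed by -0.75 (-1.25 to -0.25, adjusted p = 0.121) and H2-K1 by -0.38 (-0.76 to -0.01, adjusted p = 0.293). For H2-D1 the interval was -0.54 to 0.08, for H2-T23 -0.81 to 0.04 and for Tapbp -0.63 to 0.02. Those of H2-Q6 (-0.72 to 1.07) and H2-Q7 (-0.56 to 0.87) are wide, and that of Nlrc5, with a difference of 0.80, ran from -0.02 to 1.63 (adjusted p = 0.313). By their means, H2-K1, H2-D1, H2-Q4, H2-T23, B2m, Tap1 and Tapbp were ordered PBS, CBE+GZ-667161, CBE, and H2-Q6, H2-Q7 and Nlrc5 PBS, CBE, CBE+GZ-667161; in all 10 the treated groups overlapped, as in all but 4.11% (higher) and 3.98% (lower) of all tested genes.

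The CBE group mixes 2 samples of day 34 with 2 of day 40, and these were compared with each other. None of the 9 members passed between the days by any of edgeR, DESeq2 and limma-voom. By adjusted p, edgeR called 0.389% of all 13372 genes tested lower and 0.224% higher. An unadjusted p under 0.05 was seen for 2 members, H2-Q7 and Tap1, both with lower values at day 40. The share of all genes at an unadjusted p is not given here. H2-Q6, H2-Q7, B2m, Tap1, Tapbp and Nlrc5 were lower in both day 40 samples than in both day 34 samples, an order that 23.5% of all genes showed; 24.2% showed the opposite order, and no member did. B2m averaged 720 ± 11.9 CPM at day 34 and 537 ± 121 CPM at day 40 (SD, n = 2), and Tap1 75.4 ± 14.4 and 48.6 ± 9.87 CPM. Against the day 40 CBE samples alone, the age of all CBE+GZ-667161 samples, the log2 difference of B2m was -0.41 (adjusted p = 0.333), that of Tap1 -0.41 (adjusted p = 0.404), that of Tapbp -0.10 and that of Nlrc5 1.30 (adjusted p = 0.123). Against those of day 34 they were -0.85, -1.06, -0.51 and 0.34. The differences of B2m, Tap1 and Tapbp were thus closer to 0 at the matched age, and that of Nlrc5 farther from 0.

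**Figure D3:**
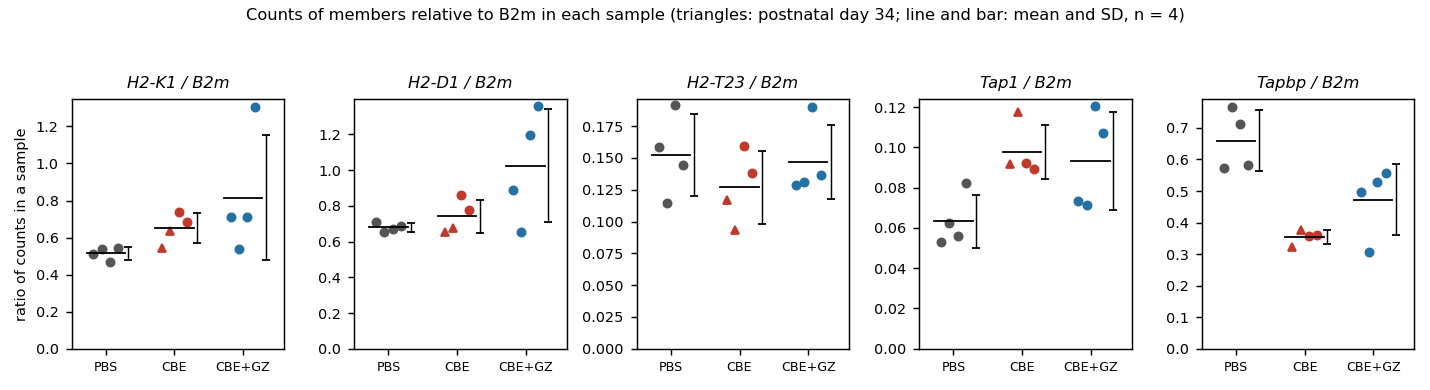
Counts of H2-K1, H2-D1, H2-T23, Tap1 and Tapbp divided by the B2m count of the same sample (vertical axes, linear, from 0) in PBS, CBE and CBE+GZ-667161. Points are samples, triangles are day 34, lines and bars are mean and SD (n = 4). Tapbp to B2m is below the PBS range in all treated samples, and H2-K1 to B2m reaches its highest value, 1.30, in CBE+GZ-667161 replicate 5.

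The parts of the complex did not move by equal amounts, which ratios of counts within a sample show free of library scaling. These ratios describe counts of tags of different genes, were not tested, and are read only between groups. Tapbp to B2m was 0.660 ± 0.096 in PBS, 0.354 ± 0.022 in CBE and 0.473 ± 0.113 in CBE+GZ-667161 (mean ± SD, n = 4). The treated samples lay at 0.307 to 0.557 and PBS samples at 0.574 to 0.768, without overlap. Tap1 to Tapbp was 0.0782 to 0.141 in PBS, 0.247 to 0.313 in CBE and 0.147 to 0.233 in CBE+GZ-667161, again without overlap between any pair of groups. The summed counts of the 6 heavy chains were 1.37 ± 0.03 times the B2m count in PBS, 1.57 ± 0.19 times in CBE and 2.08 ± 0.66 times in CBE+GZ-667161. All groups overlapped in this ratio (1.33 to 1.40, 1.37 to 1.80 and 1.39 to 2.93), and the highest value was that of CBE+GZ-667161 replicate 5. The heavy-chain sum itself was 156 ± 8.39, 971 ± 112 and 796 ± 189 CPM. H2-K1 to B2m was 0.470 to 0.545 in PBS, 0.545 to 0.736 in CBE and 0.536 to 1.30 in CBE+GZ-667161, where replicate 5 was far above the others (0.536, 0.709 and 0.709). H2-T23 to B2m overlapped in all groups (0.114 to 0.191, 0.0931 to 0.160 and 0.129 to 0.190). H2-Q6 and H2-Q7 together made up 0.663% to 2.33% of heavy-chain counts in PBS, 2.24% to 4.65% in CBE and 3.09% to 5.08% in CBE+GZ-667161.

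Class I heavy chains are close copies of each other, so how counts were assigned between them matters. In GENCODE M21, the share of 50-base stretches in the last 500 bases of the coding transcripts that occur in no other gene was 90.4% for H2-K1, 91.1% for H2-D1 and 88.2% for H2-Q7, but 57.1% for H2-Q6, 66.3% for H2-Q4 and 61.9% for H2-T23. Of the H2-Q6 stretches, 23.9% also occur in H2-Q7 and 11.6% in H2-Q4. The H2-Q4 stretches were shared most with Gm43321 (18.4%) and Olfr1238 (15.7%), and those of H2-T23 with Rab33b (17.3%) and H2-T-ps (14.4%). Sharing was thus not only among the heavy chains listed here. Over the last 1000 bases the share for H2-Q7 was 63.2%. For B2m and Nlrc5 the share was 100%, for Tap1 97.2% and for Tapbp 95.2%. The values of H2-Q4, H2-Q6, H2-Q7 and H2-T23 are therefore uncertain as single genes, since the sources used here do not say how reads with several places to map were handled.

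**Figure D4:**
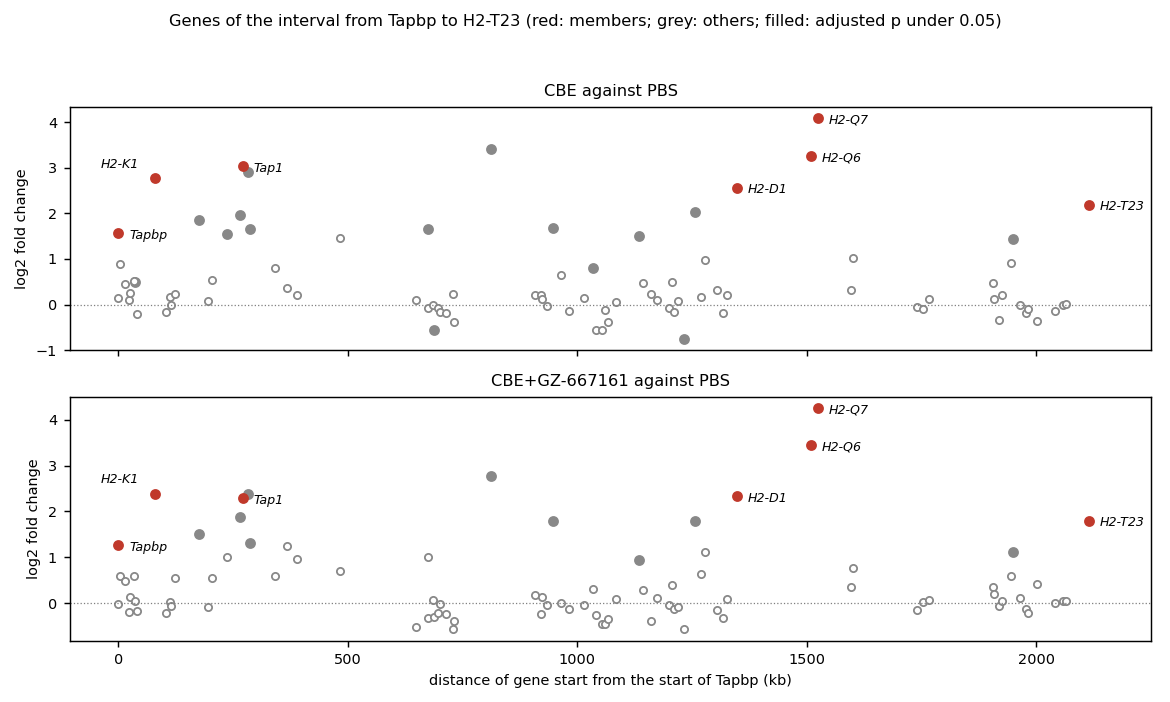
Log2 fold change against PBS (vertical axes) of each tested gene in the interval from Tapbp to H2-T23, by the distance of its start from the start of Tapbp in kb, for CBE and CBE+GZ-667161. Red points are members, grey points other genes, and filled points passed; most grey points are open and near 0.

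Of the 10 members 8 lie on chromosome 17, between the start of Tapbp and the end of H2-T23, an interval of 2.117 Mb with 210 annotated genes. Besides the members, 81 genes of this interval were tested. Of these 13 (16.0%) were higher in CBE than in PBS and 2 lower, where 6.95% and 4.04% of all tested genes were, and the median log2 fold change was 0.15. In CBE+GZ-667161 against PBS 9 (11.1%) were higher and 0 lower, where 3.11% and 0.333% of all tested genes were, with a median of 0.05. Among the 13 are the antigen processing genes Psmb8, Psmb9 and Tap2, class II genes and the complement gene C4b (3.42 ± 0.27, adjusted p = 2.61e-07). The 2 lower genes were Agpat1 (-0.55, adjusted p = 0.0269) and Prrc2a (-0.76, adjusted p = 0.031). These genes were named after their values were seen.

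**Figure D5:**
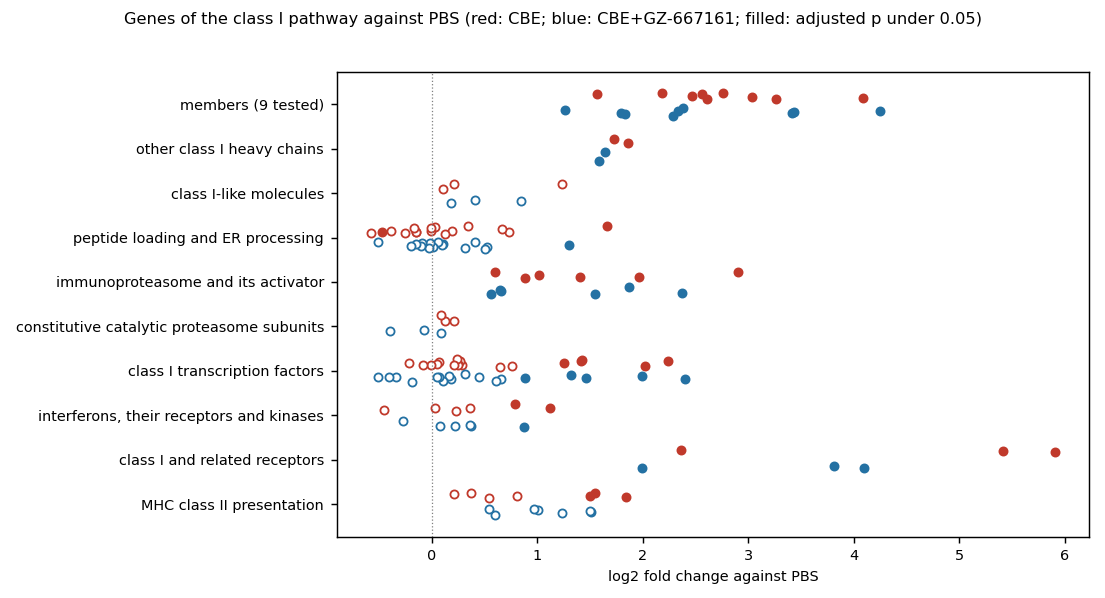
Log2 fold changes against PBS (horizontal axis) of the 9 members tested and of the genes of 9 pathway lists, for CBE (red) and CBE+GZ-667161 (blue). Filled points passed an adjusted p of 0.05. All immunoproteasome genes are filled in both, and the constitutive catalytic subunits are open. Of all tested genes, 6.95% rose in CBE and 3.11% in CBE+GZ-667161.

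The rest of the pathway was followed in lists of genes chosen, like the members, with earlier results of these data known. Their counts are therefore a description of chosen genes. By adjusted p in edgeR, 6.95% of all tested genes were higher and 4.04% lower in CBE, and 3.11% and 0.333% in CBE+GZ-667161. How many of all genes reach an unadjusted p under 0.05 is not given here. Of 6 genes of the immunoproteasome and its activator, which cut proteins into peptides suited to class I, 6 rose in CBE and 6 in CBE+GZ-667161, with median log2 fold changes of 1.21 and 1.10. Psmb8, a catalytic subunit encoded beside Tap1, went from 14.7 CPM in PBS to 113 CPM in CBE (2.90 ± 0.22, adjusted p = 1.90e-07) and 78.1 CPM in CBE+GZ-667161 (2.37 ± 0.22, adjusted p = 3.78e-06). Psmb9 rose by 1.96 ± 0.33 (adjusted p = 0.000694) and 1.87 ± 0.32 (adjusted p = 0.00153), Psme1 by 1.01 (adjusted p = 0.000645) and 0.64 (adjusted p = 0.0416), and Psme2 by 0.88 (adjusted p = 0.000172) and 0.65 (adjusted p = 0.00477). The smallest rise of the list was that of Psmb10, named after its value was seen, with 0.60 and 0.56. The 3 constitutive catalytic subunits that these replace had a median of 0.12 in CBE and -0.08 in CBE+GZ-667161, and 0 passed in either comparison by any of edgeR, DESeq2 and limma-voom (0 and 1 had an unadjusted p under 0.05). Psmb6 had 398, 460 and 378 CPM in PBS, CBE and CBE+GZ-667161, and Psmb7 92.5, 97.9 and 70.3 CPM.

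Among 16 tested genes of peptide loading and processing in the endoplasmic reticulum, Tap2, the other transporter subunit, rose in CBE (1.66 ± 0.23, adjusted p = 0.000118) and in CBE+GZ-667161 (1.30 ± 0.23, adjusted p = 0.00187). Npepps, which encodes a cytosolic aminopeptidase, fell by 0.47 ± 0.12 in CBE (adjusted p = 0.0189), and stood at -0.02 in CBE+GZ-667161 (adjusted p = 0.973). The other 14 genes, such as the chaperone genes Calr and Canx, did not pass in edgeR, and the median of the list was -0.01 and 0.03. Calr was close to the threshold in CBE (-0.38, edgeR adjusted p = 0.0592). DESeq2 and limma-voom each called 1 gene of the list higher and 2 lower in CBE. In CBE+GZ-667161 they called 2 and 1 higher and 0 lower. An unadjusted p under 0.05 in edgeR was seen for 6 genes in CBE, 3 higher and 3 lower, and for 2 in CBE+GZ-667161, both higher. How many of all genes reach an unadjusted p under 0.05 is not given here. Of 25 other heavy chains 7 were analysed here and 2 had enough counts to be tested, H2-T22 and H2-M3. Both rose: H2-T22 by 1.73 ± 0.28 (adjusted p = 0.000492) and 1.58 ± 0.27 (adjusted p = 0.00165), and H2-M3, which presents formylated peptides, by 1.86 ± 0.41 (adjusted p = 0.00698) and 1.64 ± 0.40 (adjusted p = 0.0285), with 1 PBS sample above the filter's minimum. Of 3 class I-like genes 0 passed in CBE or CBE+GZ-667161 by any of the 3 tools (unadjusted p under 0.05 in 1 and 0). Fcgrt, which encodes the neonatal Fc receptor, had 30.1, 33.3 and 34.8 CPM in PBS, CBE and CBE+GZ-667161, and Mr1, which presents vitamin metabolites, 4.81, 5.66 and 6.73 CPM.

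Of 18 tested transcription factors that act on class I genes, 5 rose in CBE, where 6.95% of all tested genes rose, and 5 in CBE+GZ-667161, where 3.11% did. Irf9, which encodes the DNA-binding part of the interferon-stimulated factor, rose by 2.02 ± 0.25 (adjusted p = 2.88e-05) and 1.99 ± 0.24 (adjusted p = 5.35e-05). Stat2 rose by 1.25 and 1.32 (adjusted p = 4.60e-05 and 4.10e-05), and the NF-kB gene Nfkb2 by 1.42 and 0.88 (adjusted p = 0.000502 and 0.0387). Irf1, which was named after its values were seen, rose by 1.42 and 1.46 (adjusted p = 0.0258 and 0.0372). The genes of the RFX complex and of the CCAAT-binding NFY factors, which sit on class I promoters with Nlrc5, did not pass in either comparison. Of 6 tested genes of interferon receptors and their kinases, 2 rose in CBE and 1 in CBE+GZ-667161: Ifngr1 by 1.12 ± 0.19 (adjusted p = 0.000834) and 0.88 ± 0.19 (adjusted p = 0.011), and Ifnar2 by 0.79 ± 0.20 (adjusted p = 0.0166) in CBE, with 0.37 (adjusted p = 0.472) in CBE+GZ-667161. The interferon genes of this list were not among those tested.

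Of 17 listed receptors that bind class I or are related to such receptors, Lilrb4a, Lilr4b and Pirb were tested. None had a PBS sample above the filter's minimum, so being higher was a condition of their test, and their values are given as a description. Pirb encodes a receptor that binds class I; the other 2 are relatives of it that are not known as class I receptors. Lilrb4a, an inhibitory receptor gene of myeloid cells, went from 0.822 ± 0.329 CPM in PBS to 37.4 ± 12.3 CPM in CBE (5.41 ± 0.36, adjusted p = 1.02e-07) and 12.7 ± 3.37 CPM in CBE+GZ-667161 (3.81 ± 0.38, adjusted p = 7.55e-06). It was lower in CBE+GZ-667161 than in CBE (-1.60 ± 0.26, adjusted p = 0.0101). Pirb went from 1.09 CPM to 5.85 and 4.67 CPM, a difference of 2.37 ± 0.44 (adjusted p = 0.00191) in CBE and 1.99 ± 0.44 (adjusted p = 0.0132) in CBE+GZ-667161. Lilr4b, a near copy of Lilrb4a, had 2 counts in all PBS samples, 94 in CBE and 40 in CBE+GZ-667161. Cd8a, the T cell co-receptor for class I, had 3, 6 and 25 counts and was too low to be tested. Of 7 tested class II genes 3 rose in CBE, namely H2-Oa (1.84 ± 0.40, adjusted p = 0.00597), H2-DMb1 (1.55 ± 0.40, adjusted p = 0.0172) and Cd74 (1.496 ± 0.444, adjusted p = 0.0387). In CBE+GZ-667161, 1 rose, H2-Oa (1.51 ± 0.39, adjusted p = 0.0427). H2-DMb1 had 1 and H2-Oa 2 PBS samples above the filter's minimum. The class II chains H2-Aa and H2-Eb1, named after their values were seen, did not pass in CBE against PBS but were lower at day 40 than at day 34, with 2 samples a day in edgeR's fit. H2-Aa stood at 16.7 ± 1.52 CPM at day 34 and 1.54 ± 0.301 CPM at day 40 (adjusted p = 0.00653), and H2-Eb1 at 11.8 ± 1.41 and 1.17 ± 1.16 CPM (adjusted p = 0.048), against 6.34 and 4.95 CPM in PBS.

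Markers of several cell types differed between the groups as well. Over all tested genes 6.95% rose and 4.04% fell in CBE, and 3.11% and 0.333% in CBE+GZ-667161, by adjusted p in edgeR. How many of all genes reach an unadjusted p under 0.05 is not given here, so marker counts at that level have no share beside them. The myeloid marker Ptprc had 1 PBS sample above the filter's minimum. Olfml3, a marker of resting microglia, had 0 and was kept only through the treated groups. The summed level of 8 pan-myeloid markers was 292 to 326 CPM in PBS, 1355 to 1824 CPM in CBE and 756 to 1371 CPM in CBE+GZ-667161, and 8 of the 8 rose in both treated groups. The sum of 12 markers of resting microglia was 462 to 493 CPM in PBS, 657 to 1283 CPM in CBE and 682 to 930 CPM in CBE+GZ-667161, and 4 and 3 of the 11 tested rose. Within CBE it was 1077 and 1283 CPM at day 34 and 657 and 695 CPM at day 40. Of 13 T cell markers 7 were analysed here, with sums of 15.8 to 56.6, 28.3 to 57.3 and 39.3 to 104 CPM; Cd3d was at 0 in CBE. Against PBS, 0 of the 4 T cell markers tested passed in CBE or CBE+GZ-667161 by edgeR, DESeq2 and limma-voom alike, and 1 and 2 had an unadjusted p under 0.05. Of 7 NK cell markers 3 were analysed here, with sums of 0 to 1.06, 0.993 to 7.78 and 0.909 to 7.13 CPM, all too low for edgeR's filter; DESeq2, run without that filter, called 1 higher in CBE. Border macrophage and monocyte markers summed to 13.8 to 34.5, 11.6 to 33.9 and 20.2 to 39.1 CPM, and endothelial markers to 366 to 434, 308 to 401 and 361 to 499 CPM. The sum of 7 neuronal markers was 3852 to 4424 CPM in PBS, 2833 to 3755 CPM in CBE, below all PBS samples, and 3162 to 4046 CPM in CBE+GZ-667161; 4 of the 7 fell in CBE and 0 by edgeR, DESeq2 or limma-voom in CBE+GZ-667161, where 3 had an unadjusted p under 0.05. Sums also overlapped between PBS and both treated groups for oligodendrocytes (5729 to 7088, 2939 to 6020 and 3582 to 8257 CPM), choroid plexus (16.3 to 112, 63.6 to 532 and 19.2 to 341 CPM) and astrocytes (3634 to 4339, 3972 to 4437 and 3723 to 3952 CPM), although 4 of 8 astrocyte markers rose in CBE. Of the CBE samples only replicate 2 lay within the PBS range of the oligodendrocyte sum. In CBE, 5 of the 7 oligodendrocyte markers were lower at an unadjusted p under 0.05 in edgeR. Limma-voom called 1 of them lower and DESeq2 0. The 1 B cell marker of 5 analysed here was at 0.838 to 2.12, 0.331 to 3.23 and 1.73 to 4.19 CPM. The part of cell numbers in the class I values was not tested.

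The 9 members tested were alike over the 12 samples: Pearson's r of each with the mean standardized profile of the others ran from 0.869 for Nlrc5 to 0.992 for H2-D1. Outside the list, the genes with the most similar profile were Ctss (r = 0.996), a lysosomal protease gene of myeloid cells, and the interferon-induced genes Irgm1 (0.994) and Bst2 (0.992), followed by Cd52 (0.991), a leukocyte surface gene, and Ifi204 (0.989), also induced by interferon. These values are a description over 12 samples in which the difference between PBS and the treated groups dominates. The profile includes H2-Q6, H2-Q7 and Nlrc5, which the low-count filter kept only through the treated groups. Being higher there was thus a condition of their inclusion. Ctss had 139, 823 and 681 CPM and Bst2 23.4, 278 and 198 CPM in PBS, CBE and CBE+GZ-667161.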

How the data were processed

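The authors deposited raw counts per gene symbol, whole numbers, for 12 whole-brain samples. Tools named per the submitters' processing notes, without role or order, are HTSeq, cutadapt, DESeq2 and HISAT 0.1.6, with build mm10; the annotation and the use of strand and molecular identifiers are not given in the sources used here. Beside counts, the authors' deposited table of log2 fold changes and p-values was read only for the 10 members. The deposited normalized signal was not used.

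Entries whose symbol had turned into a date (23 of 16505, 0.266% to 0.347% of counts) were left out. Totals were 1753626 to 6499257 counts per sample, so counting error is small for genes such as B2m and large for H2-Q4, H2-Q6 and Nlrc5, and for H2-Q7 in PBS. The filter on low counts was filterByExpr with a minimum count of 10 and a minimum total of 15. TMM scaling and the quasi-likelihood test of edgeR 4.0.16 (glmQLFit, then glmQLFTest) were applied to the 3 groups together, and again with the CBE group split by day; p-values were adjusted by Benjamini and Hochberg over all tested genes, threshold 0.05. CPM values use TMM library sizes. Likeness used log2 CPM with a prior count of 2. The steps were tested on simulated data: for CBE against PBS (12429 genes), 20% of 1.5-fold, 58.5% of 2-fold and 90.9% of 4-fold changes were recovered, for CBE+GZ-667161 against PBS (12396 genes) 18.5%, 61.9% and 90.8%, and for CBE+GZ-667161 against CBE (12376 genes) 16.7%, 62.7% and 95.4%.

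Alternatives were other size factors, no filter, DESeq2 1.42.0, limma-voom (limma 3.58.1), replicate number or sex as a term, fewer samples, CBE samples of 1 day, and leaving out each sample. Named were all members, from each pathway list up to 4 genes of smallest p that passed in CBE against PBS (or the 2 of highest level where none passed), and the 5 genes most like the members; others were named after their values were seen. Of the genes that the rule names, 1 is not reported here. The members and lists were chosen with earlier results of these data known. Positions are from GENCODE M21 and promoters from RefSeq (GRCm38.p6). R 4.3.3 and Python 3.11.15 were used.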

Additional observations from a re-analysis of the deposited data

Results flagged for a closer look

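In groups of 4, a sample was picked out where its gap to the nearest other sample exceeded the share of the group's range that Dixon's test allows at 95%, and 5 of 57 groups met this; chance alone gives about 1 in 20. H2-Q4 stood at 2.67 CPM in CBE+GZ-667161 replicate 5 and at 1.36 to 1.52 CPM in the other 3. H2-Q6 stood at 11.9 CPM in CBE replicate 2, against 4.30 to 5.55 CPM, and Nlrc5 in the same day 34 sample at 9.16 CPM, against 3.50 to 4.44 CPM. The ratio of H2-T23 to B2m was 0.190 in CBE+GZ-667161 replicate 4, against 0.129 to 0.136. The ratio of Tap1 to B2m was 0.117 in CBE replicate 3, against 0.0893 to 0.0922.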

How the results depend on the processing

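In CBE and in CBE+GZ-667161 against PBS, the 6 members measured in all samples kept their direction and stayed past the threshold under every alternative run (21 and 19), with largest adjusted p of 0.000173 (Tapbp) and 0.000712 (Tap1). In CBE+GZ-667161 against CBE, 1 member (B2m) was called lower by DESeq2 and without CBE+GZ-667161 replicate 3, so the count ran from 0 to 1 when samples were left out. Low counts limit H2-Q4, H2-Q6 and Nlrc5, and also the PBS level of H2-Q7, with 24 counts in all PBS samples together. With stretches of 35 bases, the share of 3' ends found in no other gene was 44.8% for H2-Q6, 39.4% for H2-T23 and 79.7% for H2-K1.

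Signs turned only in values that did not pass. In CBE+GZ-667161 against CBE, H2-Q6 was -0.15 with the replicate block, -0.27 with the day 34 CBE samples alone and -0.088 without CBE+GZ-667161 replicate 4 (-0.088 to 0.59 over all samples left out), and H2-Q7 -0.29 with day 34 alone and -0.027 without CBE replicate 4 (-0.027 to 0.57). Between the days, without CBE replicate 4, H2-K1 was 0.0077 (-0.36 to 0.0077) and H2-D1 0.016 (-0.31 to 0.016); H2-T23 was -0.42 with the replicate block and -0.067 and -0.069 without CBE replicate 3 and 6 (-0.069 to 0.23). The causes were not tested.

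Counts over all genes moved more. In CBE against PBS, 510 lower genes became 293 with the replicate block and 99 with day 34 alone, and 237 to 556 when samples were left out. In CBE+GZ-667161 against PBS, 42 lower became 98 by DESeq2 and 8 to 43 without single samples. In CBE+GZ-667161 against CBE, 56 higher and 105 lower became 199 and 289 by DESeq2, 32 and 50 with the replicate block, 17 and 15 with sex as a term, 9 and 22 with only these groups, 329 and 363 with the day 40 CBE samples alone, 0 and 2 with those of day 34, and 2 to 111 and 3 to 164 without single samples. Between the days, 30 higher and 52 lower became 111 and 130 by DESeq2, 10 and 9 by limma-voom, 1 and 8 with the replicate block, and 0 to 41 and 0 to 63 without single samples; with the CBE samples alone 51 were higher.

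Same-numbered samples of different groups did not deviate together (10 pairs, r from -0.08 to 0.24, 1 above 0.1, and 3 samples correlated best with their own number), so the replicate numbers were not taken to pair them; with the block these 6 members still passed in both comparisons with PBS.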
